A study of Mus musculus with 4 samples.

Results

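ATF4 and the unfolded protein response were examined through 10 genes, Atf4, Ddit3, Trib3, Asns, Chac1, Sesn2, Hspa5, Xbp1, Herpud1 and Atf6, in septic mice with and without melatonin. The 10 were chosen by name, with earlier results of these data known, by matching the Ensembl identifiers of the count files to gene symbols. They are 10 of the 55401 identifiers in each file. RNA was sequenced from kidney and heart tissue of C57BL/6 mice after cecal ligation and puncture (CLP), an operation that lets gut contents leak into the abdomen and causes sepsis, and after CLP with melatonin (CLP+MLT). There was 1 library for each combination of tissue and treatment, 4 in all, and whether each came from 1 mouse or from pooled mice was not stated. The titles of the melatonin libraries read CLP+MLT4, and what the 4 stands for was not stated. Those libraries were taken here as the CLP+MLT group. For the kidneys, the study's methods give male mice of 8 weeks, which in the CLP+MLT group drank melatonin at 25 µg/ml for 14 days before surgery on day 15, with kidneys taken 24 h later. No dose or time was stated for the hearts, and sham-operated tissue was not analysed here. CLP was common to all 4 libraries, so each comparison asks how septic tissue with melatonin differed from septic tissue without it.

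The unfolded protein response starts when unfolded proteins gather in the endoplasmic reticulum (ER). Its sensors PERK, IRE1 and ATF6 sit in the ER membrane: PERK phosphorylates eIF2, which slows protein synthesis but favours translation of Atf4 mRNA, IRE1 splices Xbp1 mRNA into the form that encodes an active transcription factor, and ATF6 is cut in the Golgi to release one. Other kinases reach ATF4 through the same phosphorylation of eIF2, a route called the integrated stress response. Much of this control acts on translation, splicing and protein cleavage, which counts of reads per gene do not measure.

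The libraries held from 15883057 to 22927905 reads on genes. The share of those reads on the mitochondrial genome was 14.8% in CLP kidney and 24.2% in CLP+MLT kidney, and 31.6% and 36.0% in CLP and CLP+MLT heart. Tissue labels were checked against defining transcripts. Umod, made by the renal tubule, was at 3872 and 3271 normalized counts-per-million (CPM) in the kidneys and 28.2 and 28.9 in the hearts, and Myh6, the cardiac myosin heavy chain, was at 2.81 and 3.96 in the kidneys and 12817 and 9768 in the hearts. Summed over 8 genes, the tubule and podocyte markers stood at 8083 and 9345 CPM in CLP and CLP+MLT kidney, and at 119 and 227 in CLP and CLP+MLT heart. Of the other cell types, macrophage markers went from 155 CPM in CLP kidney to 251 in CLP+MLT kidney, with 4 of 8 genes at least 1.5-fold higher and 1 lower. Plasma cell markers summed to 106 and 108 CPM, nearly all of it Txndc5 (102 and 95.7), which other secretory cells also make, with 4 of the 6 measured genes at least 1.5-fold higher in CLP+MLT kidney and with Tnfrsf17 and Pou2af1 at 0 reads in both kidneys. Neutrophil markers stood at 22.9 and 16.4, endothelial at 254 and 208, fibroblast at 151 and 137, adipocyte at 96.2 and 84.2, hepatocyte at 257 and 358, and cardiomyocyte markers at 10.2 and 15.7 CPM in CLP and CLP+MLT kidney, with Ly6g and Adipoq at 0 reads in both. In the same order, the hearts gave 32604 and 22166 CPM for cardiomyocyte, 241 and 299 for macrophage, 33.2 and 36.5 for plasma cell, 54.6 and 39.2 for neutrophil, 1060.5 and 1214 for endothelial, 462 and 364 for fibroblast, 1612 and 1776 for adipocyte, and 13.4 and 12.1 for hepatocyte markers. The adipocyte sums were nearly all Fabp4, which endothelial cells also make, at 93.2 and 83.6 CPM in the kidneys and 1610.5 and 1774.5 in the hearts, and of the other adipocyte genes Cidec (32 and 8 reads) and Plin1 (33 and 1 reads) were lower in CLP+MLT kidney. The kidney hepatocyte sum differed through Serpina1a, at 84.4 and 190 CPM, and the median log2 ratio of that list was 0.03. The part of these cell types in the ratios below was not tested, and in bulk tissue fewer cells of a type cannot be told apart from less RNA per cell.

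In the kidney, 8 of the 10 genes stood lower in the CLP+MLT library than in the CLP library, and 5 of them, Trib3, Asns, Xbp1, Atf6 and Hspa5, were at least 1.5-fold lower. One gene, Chac1, was at least 1.5-fold higher. Of the 16932 genes that averaged 10 or more counts in the kidneys, 11.6% were at least 1.5-fold lower and 11.0% at least 1.5-fold higher. By any amount, 50.3% of them stood higher in the CLP+MLT library. Higher genes made up 48.6% of those past 1.5-fold, and 26.6% with scaling by library size alone. The median log2 ratio of the 10 genes was −0.54, with a range from −1.52 to 1.17, and the median of all genes was 0.0029. The same pair of kidney libraries differed in the share of mitochondrial reads (14.8% and 24.2%) and of reads that aligned to more than 1 place (23.6% and 32.6%), and the part of this in the ratios was not tested. In the heart, 6 of the 10 were lower and 4 were higher, and the 2 that were at least 1.5-fold lower, Sesn2 and Herpud1, were not among the 5 of the kidney. None was at least 1.5-fold higher in the heart. Among the 15871 genes measured in the hearts the shares were 12.6% lower and 10.9% higher, so the count in the heart was near that of all genes. By any amount, 50.2% of them stood higher. The median log2 ratio of the 10 in the heart was −0.13, beside 0.0023 for all genes.

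With 1 library per group there is no replicate check and no test, and a ratio compares a pair of libraries, not the treatments. Each ratio is given with a 95% counting interval (exact Clopper-Pearson), which covers counting error only and not the spread between mice. It treats each read as independent, and reads that are PCR copies are not, so it may be too narrow even for counting error. In the kidney these intervals lay wholly past 1.5-fold for 3 genes that were lower (Asns, Hspa5 and Xbp1) and for 0 that were higher, beside 3.40% and 3.57% of all genes. In the heart they lay wholly past 1.5-fold for 0 of the 10 in either direction, beside 4.45% lower and 2.89% higher among all genes. All 10 genes passed the filter of a mean of 10 counts in both tissues.

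**Figure D1:**
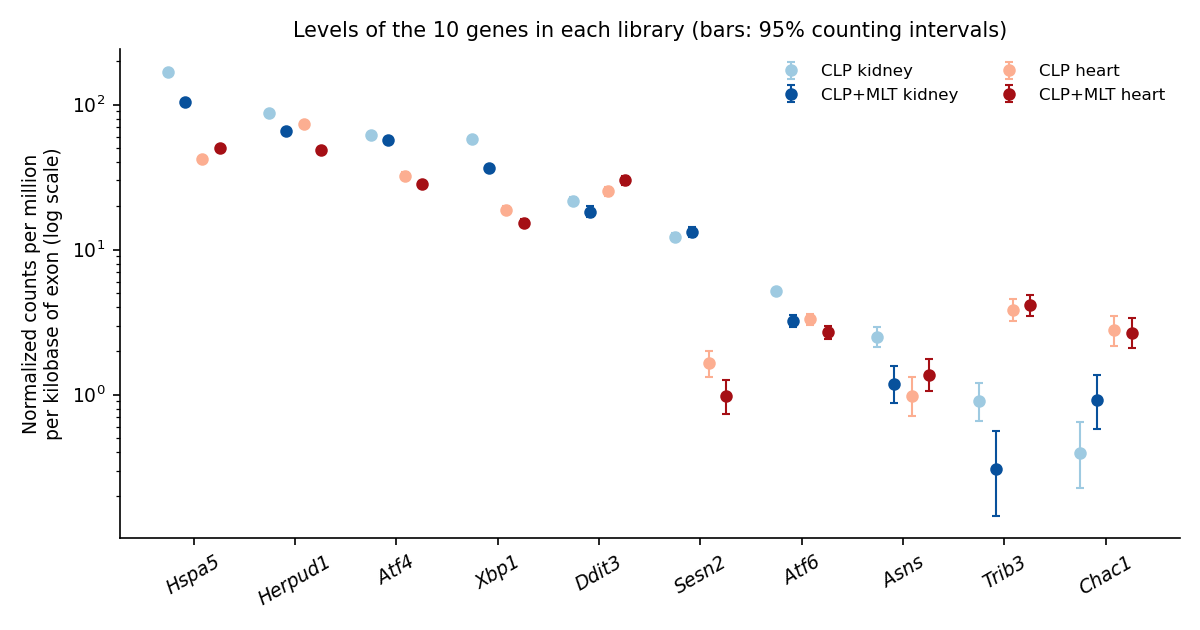
Level of each of the 10 genes in each library, as normalized CPM per kilobase of exon on a log scale, with bars for 95% counting intervals. Hspa5, Herpud1, Atf4 and Xbp1 had higher levels in kidney than the other 6 genes, whereas Trib3 and Chac1 stood higher in both hearts than in both kidneys.

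Levels of different genes were compared per kilobase of exon. In CLP kidney the order was Hspa5 at 167 CPM per kilobase, Herpud1 at 87.5, Atf4 at 61.6, Xbp1 at 58.3, Ddit3 at 21.6, Sesn2 at 12.2, Atf6 at 5.16, Asns at 2.50, Trib3 at 0.902 and Chac1 at 0.398. Atf4 and Xbp1 were neighbours whose counting intervals overlapped, and the other neighbours were separated. In CLP+MLT kidney the order was the same down to Asns at 1.19, which was followed by Chac1 at 0.913, with overlapping intervals, and then Trib3 at 0.306.

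The hearts had another order. In CLP heart Herpud1 led at 73.4 CPM per kilobase, followed by Hspa5 at 42.0, Atf4 at 32.5, Ddit3 at 25.2 and Xbp1 at 18.9. Trib3 at 3.87, Atf6 at 3.32 and Chac1 at 2.77 came next, each overlapping its neighbour, and Sesn2 at 1.64 and Asns at 0.987 were lowest. In CLP+MLT heart Hspa5 at 50.4 and Herpud1 at 48.7 overlapped at the top, and so did the next pair, Ddit3 at 30.1 and Atf4 at 28.2. Xbp1 at 15.3, Trib3 at 4.16, Atf6 at 2.70 and Chac1 at 2.68 followed, of which Atf6 and Chac1 overlapped, and Asns at 1.38 and Sesn2 at 0.977 were lowest, with overlapping intervals.

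Between the CLP libraries of both tissues, 3 of the 10 genes were higher in heart and 7 were higher in kidney. The share of all genes higher in either tissue was not counted, so these counts do not set the 10 apart from other genes. Chac1 had a log2 ratio of heart over kidney of 2.75 and Trib3 one of 2.09, and at the other end Sesn2 had −2.89 and Hspa5 −1.99. Herpud1 was nearest to equal, at −0.25, and with scaling factors set over all 4 libraries together its ratio was 0.02, so its order between the tissues rests on the scaling. Ddit3, the third gene higher in heart, had a log2 ratio of heart over kidney of 0.23 in the CLP libraries and 0.71 in the CLP+MLT libraries.

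Of the transcription factors, Atf4 itself differed little between the treatments. Atf4 (ENSMUSG00000042406.8, chromosome 15 from 80255184 to 80257541, plus strand, mm10) encodes the factor that switches on amino acid supply and stress genes when eIF2 is phosphorylated. It had 3563 reads in CLP kidney and 2065 in CLP+MLT kidney, which were 145 and 134 CPM after scaling, a log2 ratio of −0.11 with a counting interval from −0.19 to −0.04. In the hearts it had 1248 and 1075 reads, or 76.5 and 66.4 CPM, and a log2 ratio of −0.21 (−0.32 to −0.09). Both ratios were below 0 and well under 1.5-fold, and the kidneys held more Atf4 mRNA than the hearts under either treatment.

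Ddit3 encodes CHOP, a factor induced by ATF4 that is known for promoting cell death in prolonged ER stress. It lies on chromosome 10 from 127290774 to 127296288 on the plus strand. It had 906 reads in CLP kidney and 483 in CLP+MLT kidney, or 36.9 and 31.4 CPM, a log2 ratio of −0.24 (−0.40 to −0.07). In the hearts the order was opposite, with 704 and 834 reads, 43.2 and 51.5 CPM and a log2 ratio of 0.25 (0.11 to 0.40). Ddit3 overlaps Mars, the methionyl-tRNA synthetase gene, on the other strand, which had 1529, 797, 589 and 476 reads in CLP kidney, CLP+MLT kidney, CLP heart and CLP+MLT heart. The strand setting of the counting was not stated, so reads of the shared stretch may not have been told apart. A second identifier that carries the same symbol, a short locus inside Ddit3, had 0 reads in all 4 libraries.

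Xbp1 and Atf6, the factors of the IRE1 and ATF6 branches, were both lower in CLP+MLT kidney. Xbp1 (chromosome 11 from 5520659 to 5525893, plus strand) had 4645 reads in CLP kidney and 1819 in CLP+MLT kidney, which were 189 and 118 CPM. Its log2 ratio was −0.68 (−0.76 to −0.60), a level 1.60-fold lower. Its unspliced and spliced forms are summed in these counts.

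Atf6 (chromosome 1 from 170704674 to 170867771, minus strand) had 1169 and 458 reads in the kidneys, or 47.7 and 29.7 CPM, and the log2 ratio was again −0.68, with a wider interval from −0.84 to −0.52. In the hearts both genes were lower in the CLP+MLT library by less than 1.5-fold. Xbp1 had 1001 and 803 reads there (61.4 and 49.6 CPM, log2 ratio −0.31, from −0.44 to −0.17) and Atf6 had 499 and 403 (30.6 and 24.9 CPM, log2 ratio −0.30, from −0.49 to −0.11). Over the 4 transcription factors the median log2 ratio was −0.46 in kidney and −0.25 in heart.

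**Figure D2:**
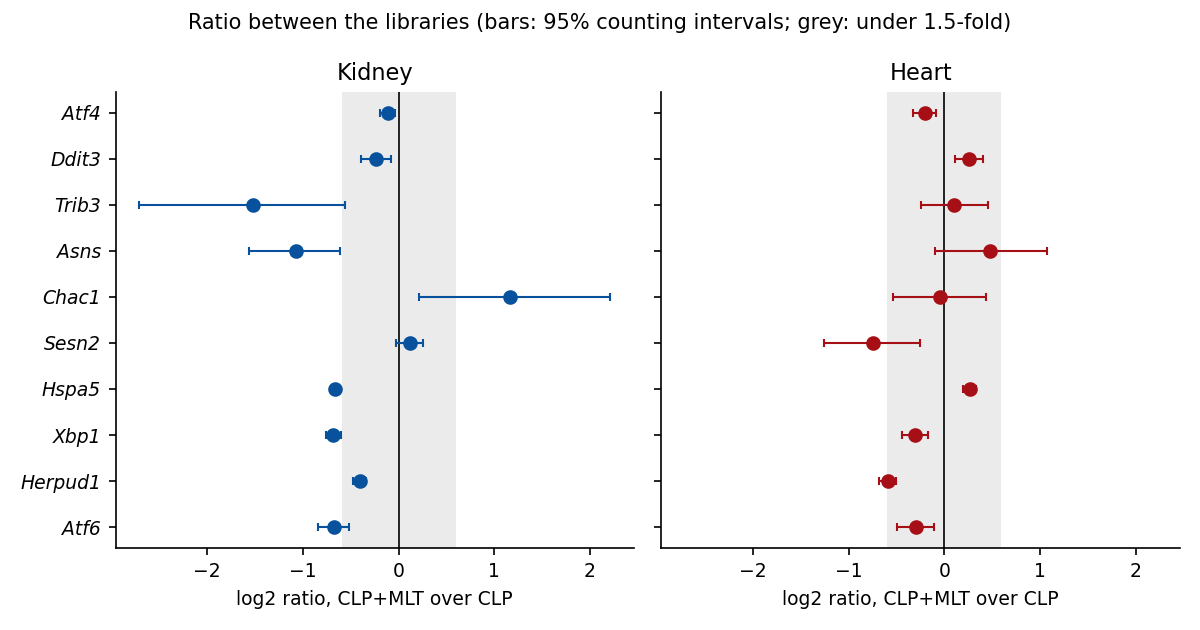
Log2 ratio of CLP+MLT over CLP for each of the 10 genes in kidney (left) and heart (right), with bars for 95% counting intervals and a grey band for ratios under 1.5-fold. In kidney, 5 genes lie beyond the lower edge of the band and Chac1 beyond the upper one, and in heart Sesn2 and Herpud1 lie beyond the lower edge.

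ATF4 binds DNA at a C/EBP-ATF response element, whose core is written here as TGATGNAA. That core, searched on both strands, lay within the window from 250 bases before to 50 bases after the start of 4 of the 9 genes with a promoter sequence in the RefSeq table (GRCm38.p6), Trib3, Asns, Chac1 and Herpud1. The table held no window for Atf6. The core was present in 3.97% of the 32851 windows of the table. Positions in these windows count from the RefSeq start, which is not always the start of the gene model whose positions are printed for the genes (GENCODE M21). For Trib3 the RefSeq start lay 28 bases before the GENCODE one, for Herpud1 9 bases before it, and for Chac1, Asns and Hspa5 it lay 13, 45 and 120 bases after it. The stretches around it are shown because these 4 genes include the largest ratios in either direction in the kidney, with the core in capitals and each written 5′ to 3′ along its gene.
Asns, chr6:7693214-7693243, minus strand: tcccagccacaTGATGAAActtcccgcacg
Chac1, chr2:119351022-119351091, plus strand: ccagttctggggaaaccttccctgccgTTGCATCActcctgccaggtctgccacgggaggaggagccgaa
Herpud1, chr8:94386289-94386358, plus strand: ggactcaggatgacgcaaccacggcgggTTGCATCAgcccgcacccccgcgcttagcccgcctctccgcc
Trib3, chr2:152344028-152344057, minus strand: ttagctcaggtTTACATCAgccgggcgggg
In Chac1, Herpud1 and Trib3 the core is on the opposite strand, so that the capitals show its reverse complement. A match of letters is a description and not a binding site, and the cAMP response element core TGACGTCA, which lay in 1.79% of all windows, matched in 0 of the 9.

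The ATF4 targets did not share a direction in the kidney. Trib3, a pseudokinase that feeds back on ATF4 and inhibits AKT, had the lowest ratio of the 10, but on few reads. It had 47 reads in CLP kidney and 10 in CLP+MLT kidney, or 1.92 and 0.649 CPM, and a log2 ratio of −1.52 (−2.71 to −0.56). In the hearts, where its level was several times that of the kidneys, it had 134 and 143 reads, 8.22 and 8.83 CPM and a log2 ratio of 0.10 (−0.25 to 0.45). The core in Trib3 lies from base 15 to base 22 after the RefSeq start, which is before the GENCODE start.

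Asns encodes asparagine synthetase, whose core lies from base −23 to base −16 before the RefSeq start. It had 168 reads in CLP kidney and 50 in CLP+MLT kidney, 6.85 and 3.25 CPM. Its log2 ratio of −1.07 (−1.56 to −0.61) was past 1.5-fold over the whole counting interval. In the hearts it had 44 and 61 reads, 2.70 and 3.77 CPM, and the log2 ratio of 0.48 had an interval that spanned 0 (−0.10 to 1.07).

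Chac1, which encodes an enzyme that degrades glutathione, stood on the other side from Trib3 and Asns in the kidney and holds the same core, from base −193 to base −186. It had 16 reads in CLP kidney and 23 in CLP+MLT kidney, 0.652 and 1.49 CPM, and a log2 ratio of 1.17 (0.21 to 2.21). It had the fewest reads of the 10 in CLP kidney, and its interval reached well under 1.5-fold. In the hearts it had 74 and 71 reads, 4.54 and 4.38 CPM and a log2 ratio of −0.05 (−0.54 to 0.44).

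Sesn2 encodes sestrin 2, a leucine sensor that restrains mTORC1 and that p53 and NRF2 also induce. It had 1040 and 708 reads in the kidneys, 42.4 and 46.0 CPM, with a log2 ratio of 0.12 (−0.02 to 0.26) that turned negative, to −0.08, when only library size was used for scaling. In the hearts it had 93 reads with CLP and 55 with CLP+MLT, 5.70 and 3.40 CPM, a log2 ratio of −0.74 (−1.26 to −0.25). Over Trib3, Asns, Chac1 and Sesn2 the median log2 ratio was −0.48 in kidney and 0.03 in heart.

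Hspa5, which encodes BiP, the main Hsp70 chaperone of the ER, had the most reads of the 10 in every library. It lies on chromosome 2 from 34771970 to 34777547 on the plus strand. Of the 9 windows, its own was the only one with a whole ER stress response element, which ATF6 and XBP1 bind with NF-Y and which lay in 0.119% of all windows. The stretch is shown, in capitals from base −65 to base −47 before the RefSeq start and so after the GENCODE one, because Hspa5 is the standard readout of the unfolded protein response and had opposite ratios in kidney and heart.
Hspa5, chr2:34772019-34772048, plus strand: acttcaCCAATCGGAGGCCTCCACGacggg
The last 5 bases of the element, CCACG, are common, and on either strand they lay in 32.8% of all windows and in 6 of the 9, Hspa5 included. The core TGACGTGG of the unfolded protein response element lay in 0.676% of all windows and in 0 of the 9.

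Hspa5 had 17313 reads in CLP kidney and 6834 in CLP+MLT kidney, or 706 and 444 CPM. The log2 ratio was −0.67 (−0.71 to −0.63), a level 1.59-fold lower. In CLP heart it had 2895 reads and in CLP+MLT heart 3452, or 178 and 213 CPM, with a log2 ratio of 0.26 (0.19 to 0.34). Hspa5 was thus lower in CLP+MLT kidney and higher in CLP+MLT heart, by less than 1.5-fold in the heart, and its kidney levels stayed above its heart levels.

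Herpud1 encodes a membrane protein that helps to bring unfolded proteins out of the ER for degradation. It was lower in the CLP+MLT library of both tissues. It had 5006 and 2370 reads in the kidneys, 204 and 154 CPM, with a log2 ratio of −0.41 (−0.48 to −0.34), and 2792 and 1838 in the hearts, 171 and 114 CPM, with a log2 ratio of −0.59 (−0.68 to −0.51). The heart ratio, 1.51-fold lower, lay at the edge of the 1.5-fold limit and fell short of it under 3 other ways of scaling. Herpud1 overlaps Gm15890 on the other strand, which had 263, 172, 13 and 9 reads in CLP kidney, CLP+MLT kidney, CLP heart and CLP+MLT heart. Over Hspa5 and Herpud1 the median log2 ratio was −0.54 in kidney and −0.16 in heart.

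**Figure D3:**
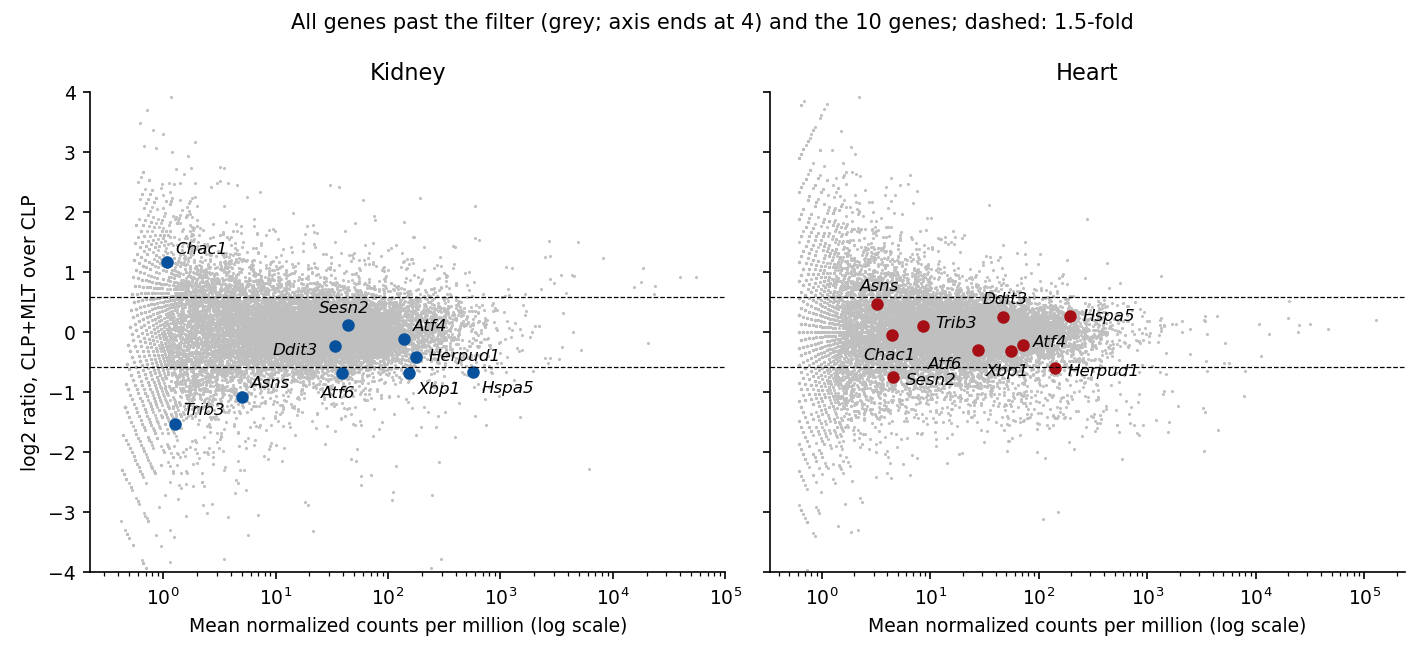
Log2 ratio of CLP+MLT over CLP against the mean normalized CPM (log scale) for all genes past the filter (grey) and the 10 genes (coloured), in kidney and heart, with dashed lines at 1.5-fold. Trib3, Asns and Chac1 lie where low counts spread the ratios of all genes, whereas Hspa5 and Xbp1 lie past 1.5-fold at high counts in kidney.

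The heart ratio minus the kidney ratio was taken for each gene, with a counting interval that covers no variation between mice. It lay above 0 for 6 of the 10 genes and below 0 for 3. The share of all genes with such an interval was not counted, so these counts do not set the 10 apart from other genes. Trib3 had the largest difference, 1.63 (0.59 to 2.67), followed by Asns at 1.55 (0.83 to 2.27), and the difference of Hspa5 was 0.93 (0.85 to 1.01). Differences were smaller for Ddit3, 0.49 (0.27 to 0.70), Atf6, 0.38 (0.14 to 0.63), and Xbp1, 0.37 (0.22 to 0.53). Below 0 were Chac1 at −1.21 (−2.25 to −0.18), Sesn2 at −0.86 (−1.36 to −0.36) and Herpud1 at −0.19 (−0.30 to −0.08). Atf4 had a difference of −0.09, with an interval from −0.23 to 0.05.

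The other genes of these pathways were described by 8 lists, which were also chosen with earlier results of these data known. In the kidney, 197 genes of the lists passed the filter, of which 32 (16.2%) were at least 1.5-fold lower in CLP+MLT and 1 (0.508%) at least 1.5-fold higher, and their median log2 ratio was −0.26. In the heart, 9 of 190 (4.74%) were lower and 5 (2.63%) higher, with a median of −0.08. Among all genes the shares were 11.6% lower and 11.0% higher in kidney and 12.6% and 10.9% in heart. The shares above 0 by any amount were 50.3% of all kidney genes and 50.2% of all heart genes. Scaling by library size alone moved the median of all kidney genes to −0.19. Under it 64 of the 197 kidney genes were lower and 0 higher, beside 18.7% lower and 6.79% higher among all genes. Stricter limits gave fewer. At a fold of at least 2, 11 of the 197 were lower and 0 higher, beside 4.90% and 4.13% of all genes. Counting intervals lay wholly past 1.5-fold for 15 lower and 0 higher, beside 3.40% and 3.57% of all genes. When a spread between mice was also assumed, as described below, fewer still passed. At a coefficient of variation of 0.2, 5 of the 197 were lower and 0 higher, beside 1.95% and 1.71% of all kidney genes. At 0.4, 2 were lower and 0 higher, beside 0.396% and 0.136% of all kidney genes.

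On the ATF4 side, 7 of 27 other genes regulated by ATF4 or CHOP (25.9%) were at least 1.5-fold lower in CLP+MLT kidney. So were 7 of 25 genes of amino acid synthesis and transport (28%), beside 11.6% of all kidney genes. By any amount, 21 of the 27 were below 0 and 6 above, whereas the 25 were split, with 14 below 0 and 11 above. Psat1, an enzyme of serine synthesis, had 2931 reads in CLP kidney and 352 in CLP+MLT kidney, a log2 ratio of −2.38, and 73 and 116 in the hearts, a log2 ratio of 0.67. Slc3a2, the shared heavy chain of several amino acid transporters, had 5064 and 1427 reads in the kidneys, a log2 ratio of −1.16. Gdf15, a stress hormone, had 405 and 107 reads there (log2 ratio −1.25). Atf3, a stress-induced factor of the same family as ATF4, had 97 and 28 reads in the kidneys (log2 ratio −1.11) and 78 and 172 in the hearts (1.15), so that it stood on opposite sides in the tissues. The 1 gene of the 8 lists that was at least 1.5-fold higher in CLP+MLT kidney, Slc43a1, an amino acid transporter named here after its values were seen, had 46 and 44 reads, a log2 ratio of 0.60.

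In the heart the medians of both lists were near 0, at 0.02 and 0.06, beside −0.31 and −0.23 in the kidney. Of 24 genes regulated by ATF4 or CHOP, 2 were at least 1.5-fold higher, Atf3 and the death receptor gene Tnfrsf10b (98 and 180 reads, log2 ratio 0.88), and 1 was lower, Ddit4, an inhibitor of mTORC1 (803 and 428 reads, −0.90). Of 24 genes of amino acid synthesis and transport, 3 were higher, among them Psat1 and Cth, an enzyme of cysteine synthesis (70 and 127 reads, 0.86), and 3 were lower, among them Slc43a1 (132 and 69 reads, −0.92) and the transaminase gene Gpt2 (285 and 180 reads, −0.65). The remaining gene in each direction, Mthfd1l higher and Phgdh lower, had fewer reads and was named after its values were seen. The shares were 8.33% higher and 4.17% lower for the ATF4 or CHOP list, and 12.5% each way for the amino acid list. Among all heart genes they were 10.9% higher and 12.6% lower, so the counts of both lists were near or under those of all genes.

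Of 18 genes for eIF2 kinases, phosphatase subunits and eIF2B, 2 were at least 1.5-fold lower in the kidney and 0 in the heart. The kidney share, 11.1%, was near the 11.6% of all kidney genes, and in the heart 12.6% of all genes were lower. The 2 were Eif2ak3, which encodes PERK (550 and 205 reads, log2 ratio −0.75), and Dnajc3, an inhibitor of the kinases that also serves BiP (3561 and 1487 reads, −0.59). Of 20 cytosolic aminoacyl-tRNA synthetase genes, 19 were below 0 in the kidney and 18 in the heart, with medians of −0.27 and −0.24. Only 1 (5%) was at least 1.5-fold lower in each, beside 11.6% of all kidney and 12.6% of all heart genes. These were Iars in kidney (965 and 352 reads, −0.78) and Kars in heart (1137 and 740 reads, −0.61).

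On the ER side, 27 of 31 genes for chaperones and folding enzymes were below 0 in the kidney, with a median of −0.36. Of the 31, 7 (22.6%) were at least 1.5-fold lower, beside 11.6% of all kidney genes. Hyou1, an ER chaperone that exchanges nucleotides on BiP, had 2846 reads in CLP kidney and 865 in CLP+MLT kidney, a log2 ratio of −1.05, and Dnajb9, a co-chaperone of BiP, had 1029 and 340, a log2 ratio of −0.92. In the heart the median of the 31 was −0.09, and 2 were at least 1.5-fold lower, Sil1 (275 and 143 reads, −0.93) and Fkbp14 (238 and 133 reads, −0.83). That was 6.45% of the list, under the 12.6% of all heart genes.

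Of 37 genes of translocation into the ER and transport to the Golgi, 32 were below 0 in the kidney. At least 1.5-fold lower were 5 (13.5%), near the 11.6% of all kidney genes. Among the 5 were Sec24d, a coat subunit of the vesicles that leave the ER (439 and 138 reads, log2 ratio −0.996), and Srpr, a subunit of the receptor for the signal recognition particle (2265 and 811 reads, −0.81). The kidney median was −0.29. In the heart the median was −0.19, and Srprb, the other subunit of that receptor, was the 1 gene at least 1.5-fold lower (304 and 198 reads, −0.61). That was 2.70% of the list, under the 12.6% of all heart genes.

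Of 28 genes of ER-associated degradation measured in the kidney, 2 (7.14%) were at least 1.5-fold lower, under the 11.6% of all kidney genes. They were Derl3 (220 and 46 reads, −1.58) and Selenos (1255 and 438 reads, −0.85), and the median of the 28 was −0.19. In the heart 1 of 27 (3.70%) was lower, the ubiquitin-conjugating enzyme gene Ube2g2 (807 and 384 reads, −1.06), with a median of −0.02. Among all heart genes 12.6% were lower. Of 11 ER stress sensors and their proteases, 1 (9.09%) was at least 1.5-fold lower in the kidney. It was Creb3l3, named after its values were seen, with 18 and 4 reads, and the list's median was −0.18. In the heart, 0 of 9 were past 1.5-fold, beside 12.6% lower and 10.9% higher among all heart genes, with a list median of −0.11.

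**Figure D4:**
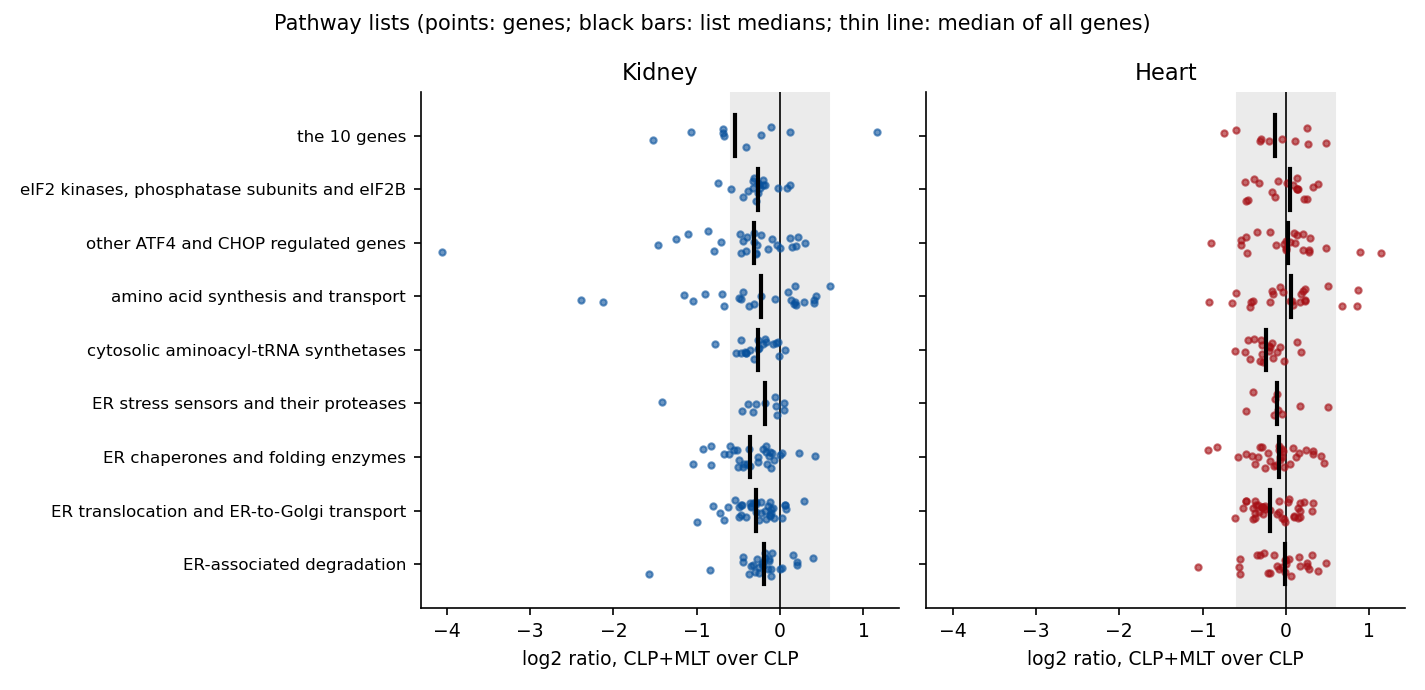
Log2 ratio of CLP+MLT over CLP for the 10 genes and for the genes of 8 pathway lists (points) in kidney and heart, with black bars for list medians and a grey band for ratios under 1.5-fold. In kidney every list median lies below 0, from −0.18 to −0.36, and in heart the medians lie between −0.24 and 0.06.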

How the data were processed

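The authors deposited raw counts of reads per Ensembl gene, not normalized, 1 library per tissue and treatment. Per the labels and the study's methods, reads were trimmed with Trim Galore, aligned to mm10 with HISAT2 2.1.0 and counted with HTSeq. For HTSeq, the version, strand setting and gene models were not given in the sources used here. Lines that name no gene held 65.5% to 72.8% of all reads counted and were left out. Of 55401 identifiers, 55141 matched GENCODE M21 (GRCm38, the assembly of mm10), from which names, positions and exon lengths were taken.

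Genes averaging under 10 counts in a tissue were dropped there. Counts were scaled within each tissue by the library total and TMM factors (edgeR 4.0.16, R 4.3.3), from 0.935 to 1.07. Log2 ratios used a prior count of 0.5, and intervals were exact Clopper-Pearson intervals at 95% (scipy 1.17.1). With 1 library per group no spread between mice could be estimated, so no p-value is reported and a gene was counted as past the limit at a normalized ratio of at least 1.5. The calculation was tested on simulated data that held counting error only, so that test says nothing about the spread between mice.

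The text names all 10 genes, and from each pathway list, in each tissue, up to 2 genes with the largest rise and 2 with the largest fall among those past 1.5-fold with a mean of at least 50 counts. For Atf4 and Hspa5 it also names the 3 genes with the most similar levels, and it names defining markers. The 10 genes, the pathway lists and the marker lists were chosen with earlier results of these data known. Alternatives were scaling by library size, by DESeq2 1.42.0 size factors, by upper quartile, by TMM over all 4 libraries and by TMM without mitochondrial and haemoglobin genes, other filters, a prior count of 5, a fold of 2, intervals wholly past the limit, and edgeR's exact test with assumed coefficients of variation of 0.2 and 0.4, in which a gene also had to reach a p of 0.01.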

Additional observations from a re-analysis of the deposited data

Results flagged for a closer look

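Ddit3 and Hspa5 stood on opposite sides in the tissues: the counting interval of each lay wholly below 0 in kidney and wholly above 0 in heart. The heart log2 ratio (CLP+MLT over CLP) minus the kidney one was 0.49 for Ddit3 and 0.93 for Hspa5. The share of all genes with such opposite intervals was not counted. With 1 library per group, the difference between the tissues was not tested against the spread between mice.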

How the results depend on the processing

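Scaling by library size alone moved the median log2 ratio of the 10 genes in kidney to −0.73, with −0.19 for all genes. Herpud1 joined the 5 genes at least 1.5-fold lower there, which made 6, beside 18.7% lower among all genes. In heart, library size alone, the upper quartile and TMM over all 4 libraries each left 1 gene lower, Sesn2, since Herpud1 dropped under the limit. Among all heart genes the shares lower were 11.0%, 11.3% and 12.1% in that order. A mean of at least 50 counts dropped Chac1 and Trib3 in kidney, which left 0 genes higher and 4 lower of 8. Of all kidney genes past that filter, 7.50% were higher and 7.58% lower. At a fold of at least 2, 1 gene was higher (Chac1) and 2 were lower (Trib3 and Asns) in kidney, beside 4.13% and 4.90% of all genes. In heart 0 were lower at that fold, beside 5.22% of all genes. Counting intervals wholly past 1.5-fold gave 0 higher and 3 lower in kidney, beside 3.57% and 3.40% of all genes. In heart they gave 0 lower, beside 4.45% of all genes. When a coefficient of variation of 0.2 or 0.4 between mice was assumed and edgeR's exact test between single libraries also had to reach a p of 0.01, 0 of the 10 passed in any of these counts. Of all kidney genes, 1.71% higher and 1.95% lower passed at 0.2, and 0.136% and 0.396% at 0.4. Over all scalings, filters and priors tried, Sesn2 in kidney (−0.08 to 0.12) and Chac1 in heart changed sign, and the other ratios kept theirs. The remaining 48 values for the 10 genes as a group stayed close to those reported. Counts stayed within 1.5 times the reported count. Medians moved by no more than the typical distance from a gene's ratio to the edge of its counting interval, which covers counting error only. Depth limits Trib3 and Chac1 most, with 10 to 47 reads in the kidneys. No replicate could be left out, and no paired analysis was possible because each group had 1 library.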

Other observations

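Some further genes of the lists, not named by the rule above, were picked after their values were seen. Fgf21, a hormone induced by ATF4, had 36 reads in CLP kidney and 1 in CLP+MLT kidney, a log2 ratio of −4.05 with a counting interval from −9.84 to −1.93. Pycr1, an enzyme of proline synthesis, had 23 and 3 reads there, a log2 ratio of −2.13 (−4.65 to −0.54). Sqstm1, an autophagy receptor gene, had 20138 and 6926 reads in the kidneys, a log2 ratio of −0.87.

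Similar profiles over the 4 libraries were sought among 9387 genes that averaged 100 or more counts in each tissue, as the Euclidean distance between log2 levels centred on each gene's mean. Rps2, Nt5c and Atp1b3 were nearest to Atf4, at distances of 0.0304, 0.0339 and 0.0347. Gm9828, Tax1bp3 and Arpc4 were nearest to Hspa5, at 0.0689, 0.112 and 0.122. With 4 libraries such nearness is a description of these levels only.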
